A study of Homo sapiens with 84 samples.

Results

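The expression of zinc finger genes named ZNF plus a number was followed in Kyse30, an established line of squamous esophageal carcinoma, and in FaDu, an established line of squamous pharyngeal carcinoma. Members were the protein-coding genes with such a symbol that averaged at least 5 CPM (counts scaled by library total) over the 43 Kyse30 libraries, and 219 of 475 protein-coding ZNF genes met this limit. The remaining 256 fell below it, and 36 of them had no count in any Kyse30 library. All 475 are among 58395 gene rows. The limit used the Kyse30 level itself, so that level is given as a description and is not tested. ZNF717 and ZNF594 lay just inside the limit at 5.007 and 5.006 CPM, and ZNF783 and ZNF92 lay just outside at 4.997 and 4.994 CPM.

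Most ZNF proteins carry tandem C2H2 fingers, each a short fold around a zinc ion that reads a few bases of DNA. Many also carry a KRAB box, which recruits the corepressor TRIM28 and with it histone methylation, and large clusters of such KRAB genes lie on chromosome 19 and are known for silencing transposons. A smaller number of ZNF proteins work elsewhere, on RNA, on ribosomes or on the cytoskeleton.

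Cells were plated with serum, starved of serum and then treated without serum, and 3′ messenger RNA libraries of total RNA were sequenced. In each line the groups were untreated cells at 0, 6 and 72 h, and cells given Fc, EpEX, EGFlow, EGFhigh or EGFhigh+EpEX for 6 or 72 h. EGFlow was 1.8 nM and EGFhigh 9 nM of EGF, the ligand of the receptor EGFR. EpEX is the extracellular domain of the adhesion molecule EpCAM, used as an Fc fusion, and Fc alone is its control. The study asked which genes respond to EpEX and EGF before and after cells change shape. Kyse30 had 3 or 4 libraries in each of 13 groups. The FaDu libraries numbered 1 and 2 stood apart. Their median Spearman correlation over 18270 genes was 0.846 with FaDu libraries 3 and 4, 0.837 with Kyse30 and 0.859 among themselves. FaDu libraries 3 and 4 had 0.956 among themselves and 0.858 with Kyse30. These values do not settle which set represents the line. The 20 FaDu libraries numbered 3 and 4, the more alike set, were used, 2 or 1 in each group. Values with all 41 are given for the FaDu treatment contrasts. The labels do not say whether replicates were separate cultures, so p-values measure the spread between libraries, which may be technical. Each line is also a single line, and a level in bulk RNA cannot separate fewer cells of a kind from less RNA per cell.

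Gene counts totalled 1944948 to 11759799 in Kyse30 libraries (median 6304338) and 6217938 to 12442349 in the FaDu libraries used (median 9259762). A count of 3, taken as the floor, equals 0.255 to 1.54 CPM in Kyse30 and 0.241 to 0.482 CPM in FaDu, and this covers counting error only. In TMM-scaled CPM (CPM over library sizes scaled by TMM, the scale of all values per library and group below), squamous markers summed to 4082 in Kyse30, with EGFR the most abundant at 2609 CPM, and to 2029 CPM in FaDu, and 7 of 9 reached 5 CPM in Kyse30. Fibroblast markers summed to 21.6 CPM in Kyse30 and 11.1 CPM in FaDu, led by COL1A1 at 15.03 CPM. Immune markers summed to 1.89 CPM on average in Kyse30 (at most 12.5 in 1 library) and 1.25 CPM in FaDu (at most 5.11), and endothelial markers to 2.34 CPM (at most 7.41) and 4.80 CPM (at most 9.598), with 1 of 4 endothelial markers at 0 in Kyse30.

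The 219 members were mostly low. They averaged 5017 CPM in sum, with 29 at 50 CPM or more, 40 from 20 to 50, 64 from 10 to 20 and 86 from 5 to 10 CPM. The highest were ZNF207, which loads the checkpoint protein BUB3 at kinetochores, at 159 CPM, ZNF106, an RNA-binding protein, at 125 CPM, ZNF395 at 112 CPM, ZNF148, a factor that binds GC-rich promoters, at 103 CPM, and ZNF428 at 102 CPM. These levels are per read and not per length, since a 3′ library gives about 1 read per transcript. The KRAB box was found in 104 members (47.5%) and in 208 of the 256 ZNF genes below the limit (81.3%). Chromosome 19 held 80 members (36.5%) and 160 of the genes below the limit (62.5%), chromosome 16 held 24 members and chromosome 7 held 17. Members with a KRAB box had a median level of 9.33 CPM and a median of 12 C2H2 fingers, and those without had 17.2 CPM and 7 fingers. A KRAB box was found in 2 of the 20 highest members and in 13 of the 20 lowest. In 8 members no C2H2 finger matched the pattern searched, among them the related repressors ZNF503 and ZNF703 and the actin-associated LIM protein ZNF185. Members with near-identical relatives, mainly in the chromosome 19 clusters, are uncertain, since 24.6% to 43.6% of reads per Kyse30 library mapped to more than 1 place and were not counted.

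Promoter windows of 300 bases (250 before to 50 after the start of transcription, RefSeq, GRCh38.p14) were available for 190 members, and 29 were not matched. The ETS motif CCGGAAG, read on both strands, was in 41.1% of member windows, in 41.2% of 211 windows of ZNF genes below the limit, in 19.6% of 9827 windows of protein-coding genes tested in Kyse30 and in 10.7% of all 27305 windows. Among members it was in 48.4% of windows with a KRAB box and in 34% without. The other motifs were the cyclic AMP element TGACGTCA (5.79% of members, 3.29% of tested genes, 1.98% of all), the AP-1 element TGANTCA (6.32%, 4.68% and 7.76%), the Sp/KLF box GGGCGG (68.9%, 70.7% and 44.6%) and the EGR element GCGTGGGCG (0.526%, 1.3% and 0.784%). An ETS or Sp/KLF letter string can overlap its neighbour, and a match is only a match of letters. Below are the windows of 4 members whose level moved within 6 h in 1 line or both, shown because these members recur in the comparisons that follow. They lie at chr1:33256242-33256541 on the plus strand (ZNF362), chr16:2009772-2010071 on the minus strand (ZNF598), chr1:26169658-26169957 on the plus strand (ZNF593) and chr19:9675051-9675350 on the minus strand (ZNF562). Capitals mark ETS, cyclic AMP and Sp/KLF matches on either strand.
ZNF362: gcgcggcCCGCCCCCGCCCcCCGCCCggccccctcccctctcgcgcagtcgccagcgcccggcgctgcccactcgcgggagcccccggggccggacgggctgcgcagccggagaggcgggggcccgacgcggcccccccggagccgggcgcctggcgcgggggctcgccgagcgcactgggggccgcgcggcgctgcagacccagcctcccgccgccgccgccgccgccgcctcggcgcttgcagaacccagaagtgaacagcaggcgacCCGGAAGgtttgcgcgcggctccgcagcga
ZNF598: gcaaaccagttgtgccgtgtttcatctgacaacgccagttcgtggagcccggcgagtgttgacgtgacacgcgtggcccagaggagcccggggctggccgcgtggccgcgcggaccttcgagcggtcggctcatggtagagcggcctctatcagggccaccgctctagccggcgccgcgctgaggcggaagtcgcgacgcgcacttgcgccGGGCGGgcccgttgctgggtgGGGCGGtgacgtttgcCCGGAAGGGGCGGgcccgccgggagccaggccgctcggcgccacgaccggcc
ZNF593: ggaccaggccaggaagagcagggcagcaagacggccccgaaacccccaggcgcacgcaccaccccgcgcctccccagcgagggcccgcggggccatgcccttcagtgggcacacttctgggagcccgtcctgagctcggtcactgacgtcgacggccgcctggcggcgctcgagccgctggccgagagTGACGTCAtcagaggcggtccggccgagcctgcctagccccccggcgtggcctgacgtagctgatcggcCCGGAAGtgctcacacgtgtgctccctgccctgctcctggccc
ZNF562: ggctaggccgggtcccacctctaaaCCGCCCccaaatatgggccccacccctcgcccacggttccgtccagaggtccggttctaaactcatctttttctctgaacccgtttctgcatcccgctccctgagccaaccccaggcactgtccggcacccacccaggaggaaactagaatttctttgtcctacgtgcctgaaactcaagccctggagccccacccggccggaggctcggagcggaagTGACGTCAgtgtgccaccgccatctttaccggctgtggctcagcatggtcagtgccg

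The ZNF362 window holds 1 ETS match near the start site and a run of 3 Sp/KLF boxes at its far end. In ZNF598 the ETS match abuts a Sp/KLF box. ZNF593 and ZNF562 each hold a cyclic AMP element, which 11 of 190 members have. Among matched windows of members called at 6 h, 2 of 6 called higher and 0 of 3 called lower hold it. The windows shown include both, so no enrichment is read from them.

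The first question was which members respond to EGF within 6 h in Kyse30. At EGFhigh, 3 members fell and 1 rose of 219 tested (1.83%), beside 2.55% of all 15350 genes tested (391 genes, 1.34% higher and 1.21% lower). A change was called at an adjusted p of at most 0.05 in edgeR's quasi-likelihood test with Benjamini-Hochberg adjustment over all genes and a log2 fold change over 0.5. The member share is thus close to the background. The median log2 fold change was -0.12 over members and -0.05 over all genes, and 58.4% of members and 53.8% of genes were below 0. At EGFlow, 1 member fell and none rose in this fit, beside 1.5% of all genes (0.814% higher and 0.684% lower), with medians of -0.12 and -0.04. ZNF469 and ZNF598 were called higher at EGFlow with DESeq2, without the filter on low counts, with the compared groups only, with the replicate block and with untreated and Fc libraries pooled as the control (ZNF469 adjusted p from 0.0198 to 0.0389). The alternatives called other members too. The count was 11 with the pooled control, beside 5.06% of all genes, and also took in ZNF331, ZNF462, ZNF548, ZNF605 and ZNF652 lower and ZNF316, ZNF562 and ZNF593 higher. It was 6 with the replicate block, beside 2.72% of all genes, with ZNF331, ZNF644 and ZNF704 lower. DESeq2 called 5, with ZNF605 and ZNF652 lower, and edgeR without the filter called 5, with ZNF488 and ZNF618 lower, ZNF706 higher and ZNF362 lost. At EGFhigh, 8 members were called with DESeq2 and 10 with the pooled control. ZNF469 was called higher there with DESeq2, without the filter and with the compared groups only (adjusted p from 0.0374 to 0.0484). ZNF608 was called lower without the filter, with the compared groups only and with the pooled control (adjusted p from 0.0025 to 0.0432). The DESeq2, unfiltered and EGFhigh pooled counts have no share of all genes beside them, and nothing is read from them.

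**Figure D1:**
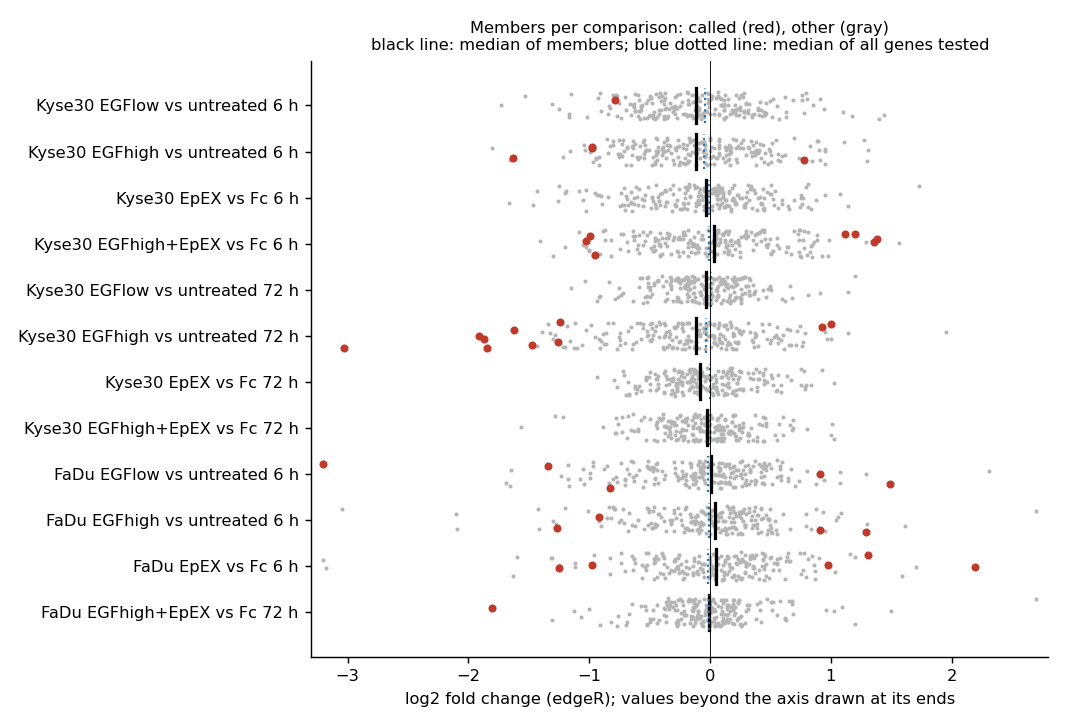
Log2 fold change (edgeR) of each member in 12 comparisons, 8 in Kyse30 and 4 in FaDu. Each point is 1 member, called members are red, the black bar is the median of members and the blue dotted line the median of all genes tested. The medians stay near 0, and the called members are few on either side, with 2 higher and 8 lower in EGFhigh at 72 h in Kyse30.

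ZNF362, a C2H2 factor closely related to ZNF384, fell at both EGF doses. It measured 44.2, 48.1 and 68.8 CPM in untreated cells. At EGFhigh it measured 22.5, 23.5, 31.2 and 32.4 CPM, and at EGFlow 22.5, 32.7, 34.5 and 36.2 CPM. All treated libraries lay below all untreated ones. The log2 fold change was -0.98 ± 0.21 (SE, adjusted p = 0.0076) at EGFhigh and -0.78 ± 0.21 (adjusted p = 0.0445) at EGFlow. Without untreated replicate 4, the highest control, the EGFhigh call was lost (log2 fold change -0.77, adjusted p = 0.115), and the EGFlow call was lost without any 1 library other than EGFlow replicate 2 (adjusted p from 0.0651 to 0.358), without the filter on low counts (0.107) and with the compared groups only (0.0884).

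ZNF703 and ZNF503 are the pair of human NET family repressors, and ZNF703 is known for its amplification in luminal breast carcinoma. ZNF703 went from 14.5, 15.5 and 29.3 CPM in untreated cells to 4.28, 6.29, 6.38 and 8.70 CPM at EGFhigh, a log2 fold change of -1.63 ± 0.39 (adjusted p = 0.0132). ZNF503 went from 49.8, 55.2 and 87.5 CPM to 27.2, 30.9, 31.9 and 41.9 CPM, a log2 fold change of -0.97 ± 0.26 (adjusted p = 0.0286). The groups did not overlap for either gene. At EGFlow, ZNF703 measured 7.21, 9.10, 11.1 and 19.1 CPM and ZNF503 34.9, 36.6, 43.5 and 59.0 CPM, both with 1 library inside the range of the untreated cells. The ZNF703 call was lost without untreated replicate 4 or EGFhigh replicate 3 (adjusted p = 0.171 and 0.0702). The ZNF503 call was lost without untreated replicate 1 or 4 or EGFhigh replicate 1, 3 or 4 (adjusted p from 0.0514 to 0.297).

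ZNF598, the ubiquitin ligase that marks collided ribosomes, was the member that rose. It measured 72.5, 76.0 and 88.7 CPM in untreated cells and 105, 135, 146 and 162 CPM at EGFhigh. At EGFlow it measured 118, 121, 146 and 173 CPM. No treated library at either dose reached down to the untreated range. At EGFlow the log2 fold change was 0.80 ± 0.22, just short of the limit in this fit (adjusted p = 0.0513) and past it in the 5 alternatives named above (adjusted p from 0.0047 to 0.0357). The log2 fold change at EGFhigh was 0.78 ± 0.22 (adjusted p = 0.0472), and the call was lost without any 1 library other than EGFhigh replicate 4 (adjusted p from 0.0774 to 0.187). Of all 219 members, 37 had libraries that did not overlap between EGFhigh and untreated cells, 15 higher and 22 lower, beside 15.2% of all genes. Leaving out untreated replicate 4 left 0 members called at EGFhigh, EGFhigh replicate 3 left 1, and EGFhigh replicate 1 or untreated replicate 1 left 2. At EGFlow 5 members were called without EGFlow replicate 2 and 0 without any other library.

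**Figure D2:**
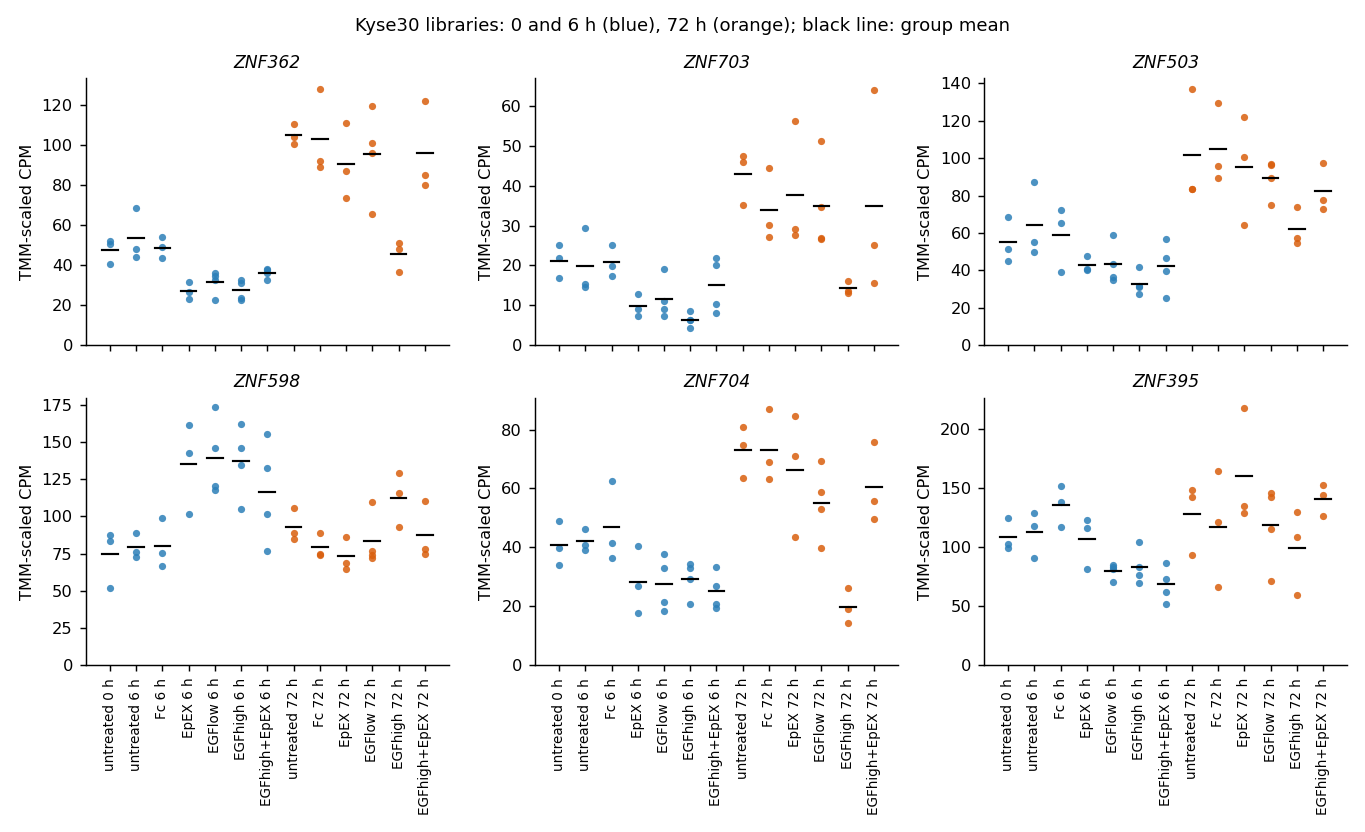
TMM-scaled CPM of 6 members in every Kyse30 library, by group, with 0 and 6 h in blue, 72 h in orange and a black bar at the group mean. At 72 h the EGFhigh libraries of ZNF362, ZNF703 and ZNF704 lay below all untreated ones, and ZNF598 was high in EGFlow and EGFhigh at 6 h, above all untreated 6 h libraries.

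The lists that follow are read against 2.55% of all genes called at EGFhigh and 15.2% at an unadjusted p under 0.05. Of 7 members with known work on ribosomes or RNA, ZNF598 rose, none fell, and the median log2 fold change was 0.37, beside -0.05 over all genes. ZNF593, a factor of large ribosomal subunit assembly, measured 20.1, 26.8 and 31.5 CPM in untreated cells and 39.0, 44.7, 51.1 and 61.1 CPM at EGFhigh, without overlap, and did not pass in this fit (log2 fold change 0.89 ± 0.28, adjusted p = 0.0724), while it passed with DESeq2, with the compared groups only, with the replicate block and with untreated and Fc libraries pooled (adjusted p from 0.0022 to 0.0429). ZNF207, ZNF326, ZNF346, ZNF622 and ZNF638 lay between -0.44 and 0.49 and were not called. Of 15 chromatin and general transcription factors none was called (3 at an unadjusted p under 0.05, median -0.13), with values from -0.72 for ZNF687 to 0.95 for the promoter factor ZNF143. Of 6 genes with known roles in epithelial differentiation or carcinoma, 5 of them members, ZNF703 fell and none rose (median -0.39). Of 12 KRAB factors known for transposons or heterochromatin, 4 were members, 6 were tested and none was called (median -0.70), with 1 of the 6 at an unadjusted p under 0.05. These lists were drawn up with results of these data known.

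None of the 104 members with a KRAB box was called at EGFhigh in this edgeR fit, and 9 of 104 were at an unadjusted p under 0.05, beside 15.2% of all genes. Of the 115 without, 1 rose and 3 fell, beside 1.34% and 1.21% of all genes. Of the KRAB members, DESeq2 called ZNF184 (log2 fold change -1.65, adjusted p = 0.0385) and ZNF562 (0.74, adjusted p = 0.0489), edgeR with the replicate block called ZNF184, and edgeR with untreated and Fc libraries pooled as the control called ZNF184, ZNF331, ZNF562 and ZNF765. The 80 members on chromosome 19 had a median log2 fold change of -0.24 and 67.5% lay below 0, while the median of the 942 other tested genes of chromosome 19 was 0.01. None of the 80 was called in this edgeR fit, with 8 of 80 at an unadjusted p under 0.05, and DESeq2 called ZNF562. Of the 80, edgeR with untreated and Fc libraries pooled as the control called ZNF331, ZNF562 and ZNF765. Related C2H2 families outside the ZNF symbol had no call among 13 ZSCAN, 6 ZKSCAN and 12 ZFP genes tested (3, 3 and 1 at an unadjusted p under 0.05, beside the same 15.2%), with medians of -0.25, -0.57 and -0.44, and 1 lower call among 33 ZBTB genes (median -0.05).

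Among partners of the KRAB box, the 22 genes of the TRIM28 pathway had 1 lower call at EGFhigh, ATF7IP, the cofactor of the histone methyltransferase SETDB1, with a log2 fold change of -1.34 ± 0.27 (adjusted p = 0.0041). At EGFlow ATF7IP changed by -1.04 ± 0.27 (adjusted p = 0.0350). TRIM28 itself was not called at either dose. As a check of the treatment, 12 known targets of the kinase ERK, which EGFR activates, gave 1 lower call in Kyse30 at EGFhigh, EGR1 (log2 fold change -1.19 ± 0.31, adjusted p = 0.0301), and none higher (6 of 12 at an unadjusted p under 0.05). Beside these lists stand 1.21% of all genes lower, 1.34% higher and 15.2% at an unadjusted p under 0.05. Of 16 KLF and EGR factors tested, KLF7 rose by 1.70 ± 0.41 (adjusted p = 0.0143) and KLF16 by 1.11 ± 0.28 (adjusted p = 0.0230), and EGR1, also in this list, fell.

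EpEX was compared with Fc to ask whether its early response resembles that of EGF. In Kyse30 no member was called at 6 h, beside 0.0261% of all genes (4 genes). At an unadjusted p under 0.05, 25 members passed (11.4%), beside 9.45% of all genes, and DESeq2 also called 0 members. In 22 members EpEX and Fc libraries did not overlap, 9 higher and 13 lower, beside 13% of all genes. The members with the smallest p were ZNF362 and ZNF84 (log2 fold change of ZNF84 -1.20 ± 0.34, adjusted p = 0.170). ZNF362 measured 43.4, 48.9 and 54.1 CPM with Fc and 22.9, 26.7 and 31.7 CPM with EpEX, without overlap (log2 fold change -0.84 ± 0.23, adjusted p = 0.148). ZNF598 measured 66.6, 75.5 and 98.6 CPM with Fc and 102, 143 and 162 CPM with EpEX, also without overlap (log2 fold change 0.76 ± 0.23, adjusted p = 0.218). ZNF703 measured 17.5, 19.8 and 25.1 CPM with Fc and 7.41, 9.21 and 12.8 CPM with EpEX (log2 fold change -1.05 ± 0.41, adjusted p = 0.390). None of the 3 passed in this fit, and ZNF598 passed with the replicate block (log2 fold change 0.76, adjusted p = 0.0400).

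With the 3 untreated and 3 Fc libraries pooled as the control, 3 members passed for EpEX, beside 0.691% of all genes. These were ZNF362 (log2 fold change -0.91, adjusted p = 0.0259), ZNF598 (0.78, adjusted p = 0.0393) and ZNF469, a gene mutated in brittle cornea syndrome (1.40, adjusted p = 0.0469). Fc alone against untreated cells gave no member called and none of 15350 genes (0%), with 8 members at an unadjusted p under 0.05 (3.65%, beside 2.83% of all genes) and 0 called by DESeq2. The members with the smallest p there were ZNF101 (log2 fold change -1.09) and ZNF526 (-0.79), both with an adjusted p of 1. Over the 219 members the EGFhigh and EpEX log2 fold changes had a Spearman rho of 0.42, beside 0.36 over all genes, and the contrasts share no library. Genes are not independent replicates, and this is a description only.

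**Figure D3:**
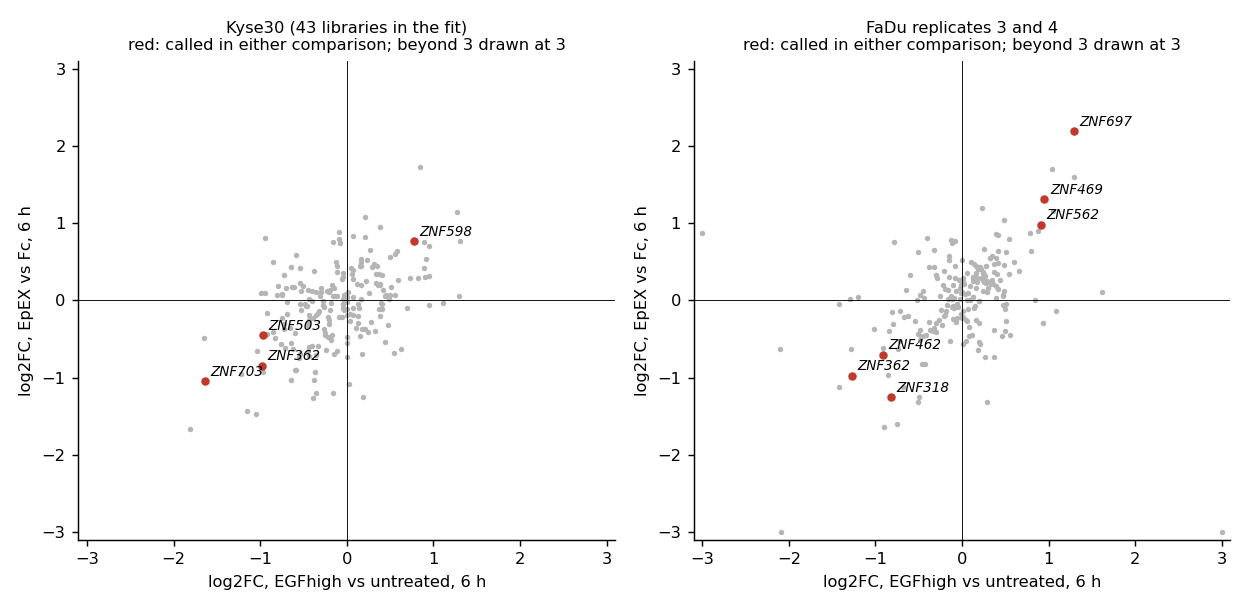
Log2 fold change of each member with EpEX against Fc (vertical) and with EGFhigh against untreated cells (horizontal), both at 6 h, in Kyse30 (left) and in FaDu replicates 3 and 4 (right). Red points were called in either comparison, and values beyond 3 are drawn at 3. ZNF362 lies low in both treatments in both lines, and ZNF697 and ZNF562 lie high in both treatments in FaDu.

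EGFhigh+EpEX against Fc at 6 h called 4 members higher and 3 lower in Kyse30, beside 4.52% of all genes (694 genes, 3.01% higher and 1.51% lower). The control differs from the untreated cells used for EGFhigh, so the 2 counts are not compared. With untreated and Fc libraries pooled as the control, 11 members were called here and 10 at EGFhigh, without a share of all genes beside them. ZNF593 rose from 16.3, 21.0 and 23.8 CPM with Fc to 39.5, 48.9, 52.0 and 77.03 CPM, without overlap (log2 fold change 1.38 ± 0.28, adjusted p = 0.00256), and its call was kept without any 1 library. ZNF316 rose from 42.5, 53.0 and 54.8 CPM to 76.7, 104, 122 and 144 CPM (log2 fold change 1.12 ± 0.24, adjusted p = 0.00507), and was lost only without Fc replicate 1 (adjusted p = 0.0562). ZNF469 went from 9.20, 11.4 and 12.4 CPM to 18.0, 22.9, 31.4 and 43.6 CPM (log2 fold change 1.36 ± 0.41, adjusted p = 0.0419). For all 3 genes the lowest treated library lay above the highest Fc library. ZNF276 also rose 2.29-fold (adjusted p = 0.0430), but it overlaps FANCA on the other strand, and whether counting used strand is not given in the sources used here. ZNF469 and ZNF276 each lost the call in 5 of 7 cases where 1 library was left out, Fc replicates 1, 3 and 4 among them (adjusted p from 0.0602 to 0.191) and with the compared groups only (0.0643 and 0.0860), and ZNF276 also with untreated and Fc libraries pooled (0.0661).

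The 3 that fell were ZNF395, a hypoxia-inducible factor, its relative ZNF704, and ZNF462, a factor of neural development. ZNF395 went from 117, 138 and 152 CPM with Fc to 51.8, 61.8, 72.8 and 86.7 CPM (log2 fold change -1.03 ± 0.26, adjusted p = 0.0170). ZNF704 went from 36.5, 41.5 and 62.6 CPM to 19.4, 20.7, 26.8 and 33.3 CPM (-0.95 ± 0.27, adjusted p = 0.0347), and ZNF462 from 68.3, 82.2 and 109 CPM to 31.8, 41.1, 50.7 and 55.9 CPM (-0.99 ± 0.27, adjusted p = 0.0239). No treated library overlapped the Fc range for any of them. All 3 lost their calls without EGFhigh+EpEX replicate 1, Fc replicate 1 or Fc replicate 4, ZNF395 and ZNF704 also without EGFhigh+EpEX replicate 3, and ZNF704 and ZNF462 also without EGFhigh+EpEX replicate 4 (adjusted p from 0.0508 to 0.280), and ZNF704 and ZNF462 also with the compared groups only (0.102 and 0.0650). The count of called members was 2 without Fc replicate 1 or 4, 3 without EGFhigh+EpEX replicate 1 and 4 without its replicate 3, and at most 10. ZNF362 measured 32.7, 36.3, 37.5 and 37.96 CPM with EGFhigh+EpEX, below all Fc libraries, and was not called (log2 fold change -0.47, adjusted p = 0.207).

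At 72 h EGFhigh called 10 members against untreated cells, 2 higher and 8 lower (4.57% of 219), beside 6.2% of all genes (951 genes, 3.04% higher and 3.16% lower). The median log2 fold change of members was -0.11, beside -0.03 over all genes. ZNF704 fell from 63.7, 74.7 and 80.8 CPM to 14.2, 19.2 and 26.2 CPM (log2 fold change -1.92 ± 0.30, adjusted p = 4.36e-05). ZNF362 fell from 100, 104 and 110 CPM to 36.8, 48.2 and 51.1 CPM (-1.24 ± 0.23, adjusted p = 0.000358). ZNF703 fell from 35.1, 45.8 and 47.5 CPM to 13.04, 13.6 and 16.1 CPM (-1.63 ± 0.40, adjusted p = 0.00842). These 3, and ZNF367, fell clear of the untreated libraries and kept their calls without any 1 library.

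ZNF367 fell furthest, from 17.5, 17.7 and 23.3 CPM to 0.709, 2.20 and 4.52 CPM, where 5, 18 and 26 reads were counted (log2 fold change -3.03 ± 0.69, adjusted p = 0.00388). The imprinted KRAB gene ZNF331 fell from 60.8, 66.2 and 72.2 CPM to 14.9, 25.8 and 44.3 CPM (-1.26 ± 0.30, adjusted p = 0.00562), and was lost without EGFhigh replicate 1 (adjusted p = 0.0802) or with the compared groups only (0.0931). ZNF488, a cofactor of OLIG2, ZNF761 and ZNF789 fell by 1.87, 1.48 and 1.84 on the log2 scale (adjusted p = 0.0203, 0.0128 and 0.0434), and each was lost without untreated replicate 3, ZNF488 and ZNF761 also without EGFhigh replicate 1, and ZNF488 and ZNF789 also without EGFhigh replicate 4 or untreated replicate 2 (adjusted p from 0.0524 to 0.175). ZNF789 was lost as well without EGFhigh replicate 3 or the filter on low counts (0.0711), and ZNF789 and ZNF761 with the compared groups only (0.168 and 0.0639). The 2 members that rose were ZNF185 and the telomere-binding factor ZNF524. ZNF185 rose from 25.6, 37.9 and 39.2 CPM to 61.5, 65.8 and 84.0 CPM (1.00 ± 0.26, adjusted p = 0.0146), and was lost without EGFhigh replicate 1 or untreated replicate 3 (adjusted p = 0.0683 and 0.110). ZNF524 rose from 14.7, 17.5 and 19.9 CPM to 26.1, 32.2 and 43.6 CPM (0.92 ± 0.28, adjusted p = 0.0407), and was lost without any 1 of EGFhigh replicates 1 and 4 or untreated replicates 1, 2 and 3, without the filter on low counts (adjusted p = 0.137), with the compared groups only (0.103), with the replicate block (0.0567) and with untreated and Fc libraries pooled (0.0647). The groups did not overlap for any of the 10, and the count of calls was 5 without untreated replicate 3 and 6 without EGFhigh replicate 1.

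By list, 3 of 104 members with a KRAB box fell and none rose, and 5 of 115 without fell and 2 rose, beside 3.16% of all genes lower and 3.04% higher. In the TRIM28 pathway 4 of 22 genes fell at 72 h and none rose (median -0.27, beside -0.03 over all genes). They were the heterochromatin protein CBX5 (log2 fold change -0.93 ± 0.18, adjusted p = 0.000855), the histone-binding RBBP7 (-0.97 ± 0.25, adjusted p = 0.0117) and RBBP4 (-0.81 ± 0.25, adjusted p = 0.0407), and UHRF1, which maintains DNA methylation (-1.55 ± 0.45, adjusted p = 0.0278).

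Adding EpEX to EGFhigh for 72 h gave 6 members higher than in EGFhigh alone and none lower in this edgeR fit, beside 3.58% of all genes (550 genes, 1.86% higher and 1.72% lower). This contrast shares the EGFhigh libraries with the one before, so the values are given side by side. ZNF362 measured 80.2, 85.3 and 122 CPM with EGFhigh+EpEX (log2 fold change 1.11 ± 0.23 against EGFhigh, adjusted p = 0.00253). ZNF704 measured 49.5, 55.9 and 75.8 CPM (1.64 ± 0.30, adjusted p = 0.00065), and ZNF367 8.44, 10.7 and 17.7 CPM (2.35 ± 0.68, adjusted p = 0.0418). All libraries of these genes lay above those of EGFhigh alone. ZNF488 measured 18.9, 22.8 and 27.9 CPM against 4.64, 5.67 and 8.17 CPM in EGFhigh (1.94 ± 0.52, adjusted p = 0.0225). ZNF789 rose by 1.92 (adjusted p = 0.0488) and the chromatin protein ZNF512 by 1.53 (adjusted p = 0.0276). ZNF362 and ZNF704 kept their calls without any 1 library. ZNF367, ZNF488, ZNF512 and ZNF789 each lost theirs in 4 or 5 of 6 cases, all without EGFhigh+EpEX replicate 2 and EGFhigh replicate 4 (adjusted p from 0.0651 to 0.224), and 3 members were called without EGFhigh+EpEX replicate 2. With the compared groups only, ZNF362, ZNF367, ZNF512 and ZNF789 lost their calls (adjusted p from 0.0641 to 0.151), and ZNF789 also without the filter on low counts (0.0660). ZNF703 measured 15.6, 25.1 and 63.9 CPM with EGFhigh+EpEX, with 1 library inside the EGFhigh range, and was not called in this fit (log2 fold change 1.33, adjusted p = 0.0513), but was called with DESeq2 and without the filter on low counts (adjusted p = 0.0302 and 0.0093). Lower members were called with DESeq2, ZNF593 (-0.93, adjusted p = 0.0379) and ZNF185 (-0.88, adjusted p = 0.0251), and ZNF185 also with RLE scaling and without the filter (adjusted p = 0.0490 and 0.0496). UHRF1, RBBP7 and CBX5 rose here by 2.04, 0.97 and 0.80 on the log2 scale (adjusted p = 0.00464, 0.0167 and 0.00691). RBBP4 and the tally of the whole TRIM28 pathway list are not given for this contrast.

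In Kyse30 at 72 h no member was called with EGFlow, EpEX, or EGFhigh+EpEX against Fc, as for all 15350 genes (0%). The counts at an unadjusted p under 0.05 were 3 (1.37%), 5 (2.28%) and 6 (2.74%) members, beside 2.86%, 3.61% and 3.92% of all genes, and DESeq2 called 0 in each. The smallest p belonged to ZNF234 and ZNF319 with EGFlow, ZNF770 and ZNF185 with EpEX, and ZNF592 and ZNF714 with EGFhigh+EpEX, with an adjusted p of 1. Untreated cells changed in 2 members from 6 to 72 h, beside 1.55% of all genes. ZNF362 rose by 0.99 ± 0.23 (adjusted p = 0.0138) and ZNF160 by 1.74 ± 0.43 (adjusted p = 0.0227), the latter from 6.61, 8.49 and 12.03 CPM to 22.8, 23.4 and 42.9 CPM. Neither gene overlapped between the times, and without untreated 6 h replicate 3 or 72 h replicate 2 neither was called. ZNF362 was also lost without 6 h replicate 1 or 72 h replicate 3, and ZNF160 without 6 h replicate 4 (adjusted p over all these cases from 0.0525 to 0.185). From 0 to 6 h no member was called, beside 0% of all genes, with 2 at an unadjusted p under 0.05 (ZNF717 and ZNF514, 0.913%, beside 2.31% of all genes) and 0 by DESeq2.

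FaDu was treated in the same way, and 215 members were tested among 16022 genes. EGFlow called 2 members higher and 3 lower (3.45% of all genes), EGFhigh 2 and 2 (3.06%) and EpEX 3 and 2 (3.5%). Alternatives called other members too. ZNF618 was called lower at EGFlow with DESeq2, without the filter on low counts and with the compared groups only. It was also called with the replicate block and the pooled control (adjusted p over all these fits from 1.37e-05 to 0.0340). ZNF787 was called higher at EGFlow, and ZNF316 with EpEX, in these fits other than the compared groups only. With 2 libraries a side, 98, 93 and 91 members did not overlap their controls, beside 43%, 40.8% and 39.8% of all genes. ZNF362 fell with all 3 treatments, from 33.6 and 37.7 CPM in untreated cells to 13.2 and 14.8 CPM with EGFlow and 13.7 and 15.5 CPM with EGFhigh. With Fc it measured 27.3 and 32.4 CPM and with EpEX 13.1 and 16.9 CPM. The log2 fold changes were -1.34 ± 0.25, -1.27 ± 0.25 and -0.98 ± 0.25 (adjusted p = 0.00376, 0.00624 and 0.0331). No treated library of ZNF362 overlapped its control. Over the 11 settings run, the EpEX log2 fold change of ZNF362 ranged from -1.16 to -0.18. The EGFlow call was kept without any 1 library. The EGFhigh call was lost without EGFhigh replicate 4 or untreated replicate 3, and the EpEX call without any 1 of the 4 (adjusted p from 0.0505 to 0.263) or with the compared groups only (0.151), where the lone library left is assumed to vary like the other groups.

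In Kyse30 at EGFhigh, edgeR with the replicate block called ZNF697 higher (log2 fold change 1.13, adjusted p = 0.0462). In FaDu, ZNF697 and the KRAB gene ZNF562 rose with all 3 treatments. ZNF697 went from 7.45 and 8.196 CPM in untreated cells to 19.5 and 24.3 CPM with EGFlow and 17.1 and 20.8 CPM with EGFhigh. It went from 4.34 and 4.59 CPM with Fc to 18.2 and 22.003 CPM with EpEX, a log2 fold change of 2.19 ± 0.34 (adjusted p = 0.000802) that was kept without any 1 library. ZNF562 measured 35.0 and 40.1 CPM in untreated cells, 67.7 and 73.2 CPM with EGFlow and 62.4 and 77.5 CPM with EGFhigh. It measured 34.4 and 42.4 CPM with Fc and 71.0 and 78.2 CPM with EpEX (0.98 ± 0.20, adjusted p = 0.00785, lost without Fc replicate 3 at 0.115 and with the compared groups only at 0.0781). The groups did not overlap for either gene in any of the 3 contrasts. At EGFlow and EGFhigh the log2 fold changes of ZNF697 were 1.49 and 1.29 (adjusted p = 0.0140 and 0.0370) and those of ZNF562 0.91 and 0.91 (adjusted p = 0.0131 and 0.0142), and these 4 calls were each lost without untreated replicate 3, untreated replicate 4 or the treated replicate 3 (adjusted p from 0.0566 to 0.209), and ZNF562 at EGFlow and ZNF697 at EGFhigh also without the treated replicate 4 (adjusted p = 0.0565 and 0.222). At EGFhigh both were also lost with the compared groups only (0.0905 and 0.0703), and ZNF697 without the filter on low counts (0.0530).

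ZNF462 fell in FaDu with both EGF doses, from 47.0 and 63.5 CPM to 27.9 and 34.0 CPM with EGFlow and 28.5 and 29.5 CPM with EGFhigh (log2 fold change -0.83 ± 0.21 and -0.92 ± 0.21, adjusted p = 0.0377 and 0.0219). With EpEX it measured 27.4 and 33.2 CPM against 48.8 and 51.3 CPM with Fc and was not called in this fit (adjusted p = 0.0864), but was called with the replicate block and with untreated and Fc libraries pooled (adjusted p = 0.0262 and 0.0114). ZNF318, a nuclear factor that controls splicing of the IgD transcript, fell with EpEX from 40.4 and 42.97 CPM to 12.9 and 21.7 CPM (-1.25 ± 0.29, adjusted p = 0.0185). ZNF469 rose with EpEX from 20.5 and 26.2 CPM to 46.7 and 67.7 CPM (1.31 ± 0.30, adjusted p = 0.0170). None of these groups overlapped. ZNF318 was also called lower at EGFlow and EGFhigh with the replicate block and with untreated and Fc libraries pooled (adjusted p from 0.0356 to 0.0463). Both ZNF462 calls were lost without untreated replicate 3 or either treated library (adjusted p from 0.0638 to 0.370) and with the compared groups only (0.0610 and 0.0836). The ZNF318 call was lost without either Fc library or EpEX replicate 4, and the ZNF469 call without either Fc library or EpEX replicate 3 (adjusted p from 0.0576 to 0.224), and the ZNF318 call also with the compared groups only (0.0718). By count, EGFlow called 2 members without either EGFlow library, 1 without untreated replicate 3 and 3 without untreated replicate 4, EGFhigh 0 without untreated replicate 3 and 1 without EGFhigh replicate 4, and EpEX 1 without Fc replicate 3, 2 without Fc replicate 4 and 3 without EpEX replicate 4. ZNF488 had 6 and 17 reads in untreated FaDu cells and none in EGFlow, at least 4.31-fold lower when set against a floor of 3 reads per library (adjusted p = 0.0374, lost without any 1 of the 4 libraries).

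**Figure D4:**
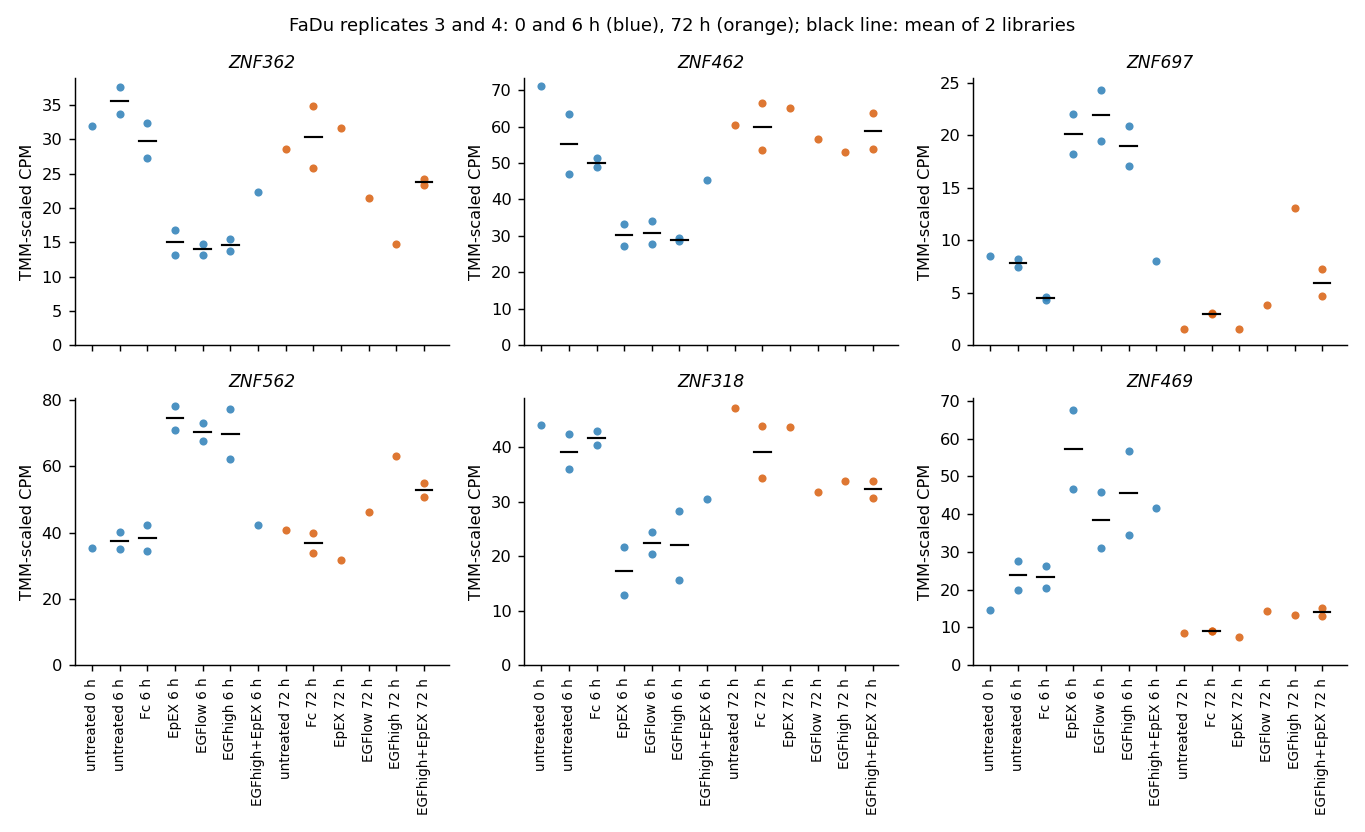
TMM-scaled CPM of 6 members in FaDu replicates 3 and 4 by group, with 0 and 6 h in blue, 72 h in orange and a black bar at the mean of 2 libraries where there are 2. With EGFlow, EGFhigh and EpEX at 6 h, ZNF362 and ZNF462 lie below and ZNF697 and ZNF562 above all untreated and Fc 6 h libraries, and the single EGFhigh+EpEX 6 h library of ZNF562 lies at 42.3 CPM, inside the control range.

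With all 41 FaDu libraries in the fit, 0 members were called in EGFlow, EGFhigh and EpEX at 6 h, as were 0 of all 18533 genes tested, so the count says nothing particular to the members. At an unadjusted p under 0.05 there were 9, 8 and 9 of 219 members, beside 5.21%, 6.74% and 4.47% of all genes. In FaDu the ERK targets gave 5 of 12 genes higher with each of the 3 treatments, beside 2.55%, 2.29% and 2.45% of all genes, among them FOSL1 at EGFhigh (log2 fold change 2.29 ± 0.38, adjusted p = 0.00165) and PHLDA1 (1.82 ± 0.31, adjusted p = 0.00197). None of the 22 TRIM28 pathway genes was called in the 3 contrasts (4, 3 and 4 at an unadjusted p under 0.05, beside 15%, 14.1% and 13.9% of all genes).

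At 72 h in FaDu, EGFhigh+EpEX against Fc called 1 member, beside 0.818% of all genes. ZNF704 fell from 37.3 and 49.7 CPM to 10.1 and 15.01 CPM, without overlap (log2 fold change -1.80 ± 0.38, adjusted p = 0.0280), and was lost without any 1 of the 4 libraries (adjusted p from 0.0934 to 0.517). Fc at 72 h against 6 h called 3 members, beside 2.88% of all genes. ZNF598 fell from 251 and 330 CPM to 134 and 141 CPM (-1.05 ± 0.17, adjusted p = 0.00123) and kept its call without any 1 library. ZNF469 fell from 20.5 and 26.2 CPM to 8.92 and 8.97 CPM (-1.35 ± 0.31, adjusted p = 0.0215), and ZNF611 rose from 3.95 and 7.86 CPM to 15.997 and 16.3 CPM (1.47 ± 0.36, adjusted p = 0.0308). The groups did not overlap for these 3, and ZNF469 and ZNF611 were each lost in 3 of 4 cases, without either 72 h library and, for ZNF469, Fc 6 h replicate 4 or, for ZNF611, Fc 6 h replicate 3 (adjusted p from 0.139 to 0.324), and ZNF611 with the compared groups only (0.0639). With all 41 libraries neither contrast called a member or any of the 18533 genes (0 and 5 members at an unadjusted p under 0.05, beside 2.01% and 3.52% of all genes).

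A difference between lines in the response was tested in 1 joint fit of 63 libraries. For EGFhigh at 6 h 0 members differed, beside 0.0611% of all genes, with 6 members at an unadjusted p under 0.05 (2.74%, beside 4.91%) and 0 by DESeq2. For EpEX at 6 h 0 members differed, beside 0.127% of all genes, with 12 at an unadjusted p under 0.05 (5.48%, beside 5.58%) and 1 by DESeq2. ZNF697 had the smallest p for EpEX (difference in log2 fold change, Kyse30 minus FaDu, -2.21 ± 0.61, adjusted p = 0.228). ZNF503 at EGFhigh differed by -1.13 ± 0.42 (adjusted p = 0.867), and the lowest adjusted p of any member there was 0.600. For ZNF362 the differences were 0.32 ± 0.35 and 0.15 ± 0.36, both with an adjusted p of 1. The member called by DESeq2 was ZNF697 (-2.24, adjusted p = 0.0375), so a difference between lines in its EpEX response depends on the test. No difference between lines was shown by either test for the other responses to EGFhigh and EpEX named above in 1 line only, and the other treatments were not tested between lines.

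The levels of the members in the 2 lines were compared in untreated cells at 6 h. The members were chosen by their Kyse30 level, which favours genes higher in Kyse30, and line and library set cannot be told apart, so the values are a description. Across members the mean levels had a Spearman rho of 0.78. Of 219 members 25 were higher and 23 lower in Kyse30 past the same limits (21.9%), beside 22.4% of all 19634 genes, from which nothing is read. The count of 48 fell to 24 without FaDu untreated replicate 3 and to 23 without replicate 4. ZNF785, ZNF608 and ZNF329 had no read in the untreated FaDu libraries and were at least 37.4-fold, 36.9-fold and 13.7-fold higher in Kyse30 against a floor of 3 reads per library. ZNF185 measured 58.4, 58.7 and 66.7 CPM in Kyse30 and 1.43 and 3.60 CPM in FaDu. ZNF703 had 4 reads and ZNF365, a centrosomal protein, 6 reads in FaDu, against means of 19.7 and 20.4 CPM in Kyse30. In the other direction ZNF598 measured 289 and 307 CPM in FaDu, ZNF618 71.5 and 74.2 CPM against 9.80, 13.6 and 31.0 CPM in Kyse30, and ZNF710 14.1 and 17.2 CPM against 2.81, 3.83 and 5.16 CPM.

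**Figure D5:**
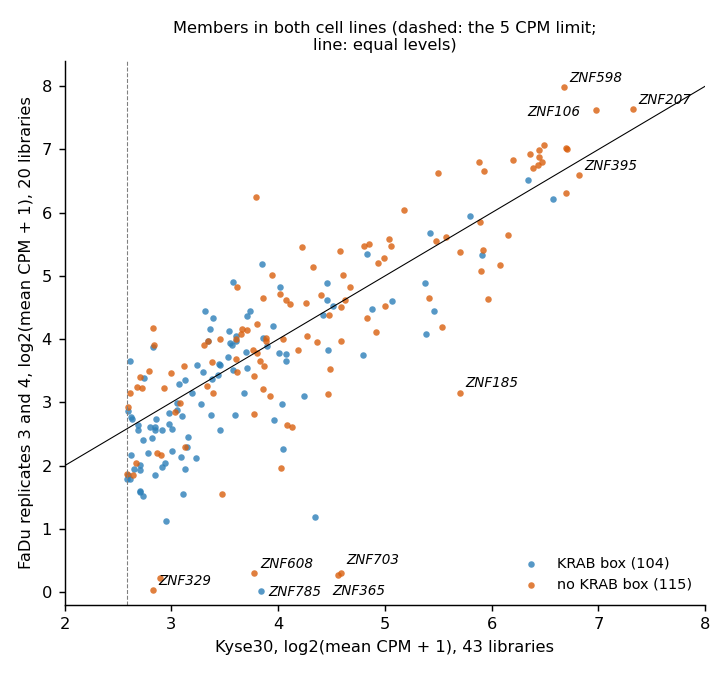
Mean CPM of each member in Kyse30 (horizontal) and FaDu replicates 3 and 4 (vertical) on a log2(mean CPM + 1) scale, with KRAB members in blue and the rest in orange. The dashed line marks the 5 CPM limit of the choice and the solid line equal levels. ZNF185, ZNF365, ZNF608, ZNF703, ZNF785 and ZNF329 lie far below the line of equal levels.

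By position, again as a description from which nothing is read, 11 of 80 members on chromosome 19 were higher in Kyse30 and 2 lower (median log2 fold change 0.37), beside 164 higher and 83 lower of 1210 other genes of that chromosome (20.4%, median 0.21). On chromosome 16 from 30 to 32 Mb, a window chosen after its values were seen, 1 of 13 members was higher and 7 were lower in Kyse30 (median -1.04), beside 8 higher and 7 lower of 69 other genes (21.7%, median -0.03).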

How the data were processed

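Gene counts of 84 libraries were analysed. The authors prepared QuantSeq 3′ FWD libraries and deposited a raw count per gene for each library, and the submitters' processing notes name STAR, HTSeq and the human build GRCh38 (hg38). The annotation, the use of strand and of molecular identifiers are not given in the sources used here. Rows for reads without a gene were left out of library sizes. GENCODE 29 symbols matched 58275 of 58395 gene rows.

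Genes were kept by filterByExpr (minimum count 10, total 15) and tested with edgeR 4.0.16 (R 4.3.3) by the quasi-likelihood test on TMM-normalized counts, in 1 fit over the 43 Kyse30 and 1 over the 20 FaDu libraries of replicates 3 and 4. Levels and responses were compared between lines in a joint fit of 63. P-values were adjusted by Benjamini-Hochberg over all genes. Genes past an adjusted p of 0.05 whose log2 fold change exceeded 0.5 either way were called. DESeq2 1.42.0 was an alternative. The tests across genes were tested on simulated counts with known changes at EGFhigh 6 h. At true log2 fold changes of 0.75, 1 and 2, edgeR called 11.4%, 30% and 75% of changed genes in Kyse30. In FaDu it called 4.29%, 25.7% and 83.3%. Most changes of 1 or less were thus missed, and a member not called may have changed. Differences between lines were not simulated. The 21 FaDu libraries of replicates 1 and 2 entered only an alternative. The KRAB box was found with a profile of 30 residues on proteins translated from GENCODE 29, and a C2H2 finger by its cysteine and histidine spacing.

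By rule, the text names the 5 highest members, the members beside the CPM limit, up to 8 called members in each direction for EGFhigh at 6 h and 3 in every other comparison, the 2 with the smallest p where none was called, and members of the lists of roles. This rule was not followed for the EGFhigh response between lines, where the member with the smallest p is not named. Other called members were named after their values were seen. The members and lists were chosen with earlier results of these data known.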

Additional observations from a re-analysis of the deposited data

Results flagged for a closer look

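In groups of 4 libraries, a library far from the other 3 by Dixon's criterion was found for 6 of 100 groups of values. The groups held values of called members and, in a few, the summed level of all members. Chance gives about 1 in 20 groups, or 5. In Kyse30 treated with EGFhigh+EpEX for 6 h, ZNF185 measured 109 CPM in replicate 1 (others 50.1 to 59.6), ZNF331 46.2 CPM in replicate 3 (others 26.4 to 28.8) and ZNF367 24.3 CPM in replicate 2 (others 5.06 to 8.11). In Kyse30 treated with EGFlow for 72 h, ZNF367 measured 30.5 CPM in replicate 2 (others 6.64 to 9.35) and ZNF598 110 CPM in replicate 1 (others 72.2 to 76.6). With EGFlow for 6 h, ZNF611 measured 0.703 CPM in replicate 2 (others 7.18 to 8.22). These values are TMM-scaled CPM, they fall in 6 libraries and 5 genes, and their source was not tested.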

How the results depend on the processing

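No called member changed sign in any setting that gave a value, and each alternative ran, except that ZNF488 in FaDu EGFlow had no value with the compared groups only. Medians of members near 0 did change sign: Kyse30 EGFhigh+EpEX 6 h (0.036), FaDu EGFlow (0.0050), FaDu EGFhigh (0.038) and FaDu EGFhigh+EpEX 72 h (-0.0053) under settings given below, and Kyse30 EpEX 6 h, Kyse30 EGFhigh+EpEX against Fc 72 h and the EGFhigh response between lines without 1 library each. Of 96 calls of single members, 48 were differences in level between untreated lines, given above as a description. In every setting 19 of the 96 were kept, most of them such differences between lines. The treatment or time calls kept were all in Kyse30. They were ZNF593 (EGFhigh+EpEX 6 h), ZNF362, ZNF704, ZNF367 and ZNF703 (EGFhigh 72 h) and ZNF704 (EGFhigh+EpEX against EGFhigh, 72 h). With all FaDu libraries in the fit, 0 FaDu treatment or time calls were kept and 18 were lost. DESeq2 and RLE scaling kept 96 of 96. The cause of the moves below was not tested. The counts below have no share of all genes in the same fit beside them. A move in a count is therefore not read as particular to the members.

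The count of called members was, with DESeq2, 5 (Kyse30 EGFlow 6 h), 8 (EGFhigh 6 h), 13 (EGFhigh+EpEX 6 h), 12 (EGFhigh+EpEX against EGFhigh, 72 h), 8 (FaDu EpEX), 5 (FaDu Fc 72 h against 6 h, median log2 fold change -0.041) and 1 (EpEX response between lines). Without a filter on low counts it was 5 (Kyse30 EGFlow 6 h), 7 (EGFhigh 6 h), 8 (FaDu EGFlow), 7 (FaDu EGFhigh), 11 (FaDu EpEX) and 9 (FaDu Fc over time). With the compared groups only it was 2 (Kyse30 EGFlow 6 h), 7 (EGFhigh 6 h), 3 (EGFhigh+EpEX 6 h), 6 (EGFhigh 72 h), 2 (EGFhigh+EpEX against EGFhigh), 4 (untreated 72 h against 6 h), 1 (FaDu EGFhigh) and 2 (FaDu EpEX). With untreated and Fc libraries pooled as control it was 11 (Kyse30 EGFlow 6 h), 10 (EGFhigh 6 h), 3 (EpEX 6 h), 11 (EGFhigh+EpEX 6 h, median -0.035), 9 (FaDu EGFlow), 7 (FaDu EGFhigh) and 12 (FaDu EpEX).

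The replicate numbers were not taken as pairs, since only 120 of 217 same-numbered Kyse30 pairs and 20 of 42 FaDu pairs of libraries correlated above 0.1. Over deviations from group means, same-numbered libraries correlated on average at 0.120 (lowest -0.291) in Kyse30 and at 0.160 (lowest -0.210) in FaDu. Other numbers gave -0.041 and -0.160, but deviations cancel within a group, so these values largely follow from the first. In Kyse30, 34 of 43 libraries correlated best with their own number, a hint from the data that numbers share something. The main fit leaves this out. In FaDu 14 of 14 did, but with 2 libraries a group each value has a mirrored copy, and no hint is read there. Fitting the replicate block gave counts of 6 (Kyse30 EGFlow 6 h), 7 (EGFhigh 6 h), 1 (EpEX 6 h), 9 (FaDu EGFlow), 10 (FaDu EpEX) and 7 (FaDu Fc over time), and 89 of the 96 single calls were kept.

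With all 41 FaDu libraries the count was 0 in each of the 5 FaDu contrasts, with medians of 0.076 (EGFlow), 0.31 (EpEX), 0.11 (EGFhigh+EpEX 72 h) and -0.015 (Fc over time). With members at 2 CPM or more the medians were -0.16 (Kyse30 EGFhigh 72 h), -0.056 (FaDu EGFlow), -0.0496 (FaDu EGFhigh) and -0.0301 (FaDu Fc over time), and with members at 10 CPM or more 0.0697 (FaDu EGFlow).

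Leaving out 1 library in turn gave counts (and medians) of 0 to 5 for Kyse30 EGFlow 6 h, 0 to 3 for EGFhigh 6 h, 2 to 10 (-0.0353 to 0.12) for EGFhigh+EpEX 6 h, 5 to 11 (-0.16 to -0.0679) for EGFhigh 72 h, 3 to 8 (0.0677 to 0.16) for EGFhigh+EpEX against EGFhigh and 0 to 2 for untreated 72 h against 6 h. The medians of EpEX 72 h ranged from -0.0632 to -0.0028. In FaDu they were 1 to 3 (-0.0760 to 0.0577) for EGFlow, 0 to 3 (-0.0823 to 0.0759) for EGFhigh, 1 to 5 (0.0484 to 0.12) for EpEX, 0 (-0.12 to 0.0593) for EGFhigh+EpEX 72 h and 1 to 4 (-0.10 to -0.0484) for Fc over time. Between lines the range was 23 to 38 (-0.10 to -0.0214). A lone FaDu library left in a group is assumed to vary like the other groups.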
